A study of Drosophila melanogaster with 3 samples.

Results

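The peaks described here are the 1572 ChIP-seq peaks of the Drosophila X chromosome among the 8048 peaks that passed the authors' reproducibility threshold on the dm6 build. They were chosen by chromosome alone, as every thresholded peak listed on the X, and make up 19.5% of the set. The other 6476 peaks, on 2L, 2R, 3L, 3R and 4, are the comparison, called the autosomes below. The assay was chromatin immunoprecipitation and sequencing of lozenge (lz), a Runx-family transcription factor, in whole white prepupae, animals that have just begun metamorphosis. All samples form a single group: a transgenic strain, lz-GFP, that stably carries lz with a C-terminal eGFP tag, precipitated with an antibody against GFP. Males and females were pooled, the age is recorded as unknown, and chromatin was sheared by sonication to between 200 and 800 bp. There are 3 biological replicates, each with its own list of calls, and no control sample was analysed here. Because whole animals of both sexes were pooled, the tissue and the sex in which any peak arose cannot be told apart.

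In flies, males carry a single X and females a pair. Pooled animals of both sexes thus hold fewer copies of the X than of the autosomes. The part of this in the densities, ranks and shares below was not tested. Males raise transcription from their X through the dosage compensation (MSL) complex, a set of proteins that spreads along active X genes together with the noncoding RNAs roX1 and roX2, which are themselves X-linked. The gene that encodes lz is also on the X; the protein acts in crystal cells of the blood, in the developing eye and in olfactory sensilla, and Runx proteins recognise a short consensus sequence. Peaks of many factors in flies gather at promoters, where the DRE (read by DREF), the M1BP site and the BEAF-32 site occur, and GAGA and CA repeats are common on the X and have been linked to its compensation.

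The sequences around the summits of 4 of the strongest X peaks are shown first, because these peaks stood high in all 3 replicates and hold none of the motifs searched for. Each is read on the plus strand of dm6 from the RefSeq genome, within 50 bp of the summit, and stops where an annotated exon begins. The rank is the peak's place by the authors' signal value among all 8048. In every sequence printed, capitals mark a match on either strand to any of 8 motifs: GAGAGAGA (GAGA repeat), ACACACAC (CA repeat), TATATATA (TA repeat), TATCGATA (DRE), GGTCACACT (M1BP site), CGATAT (BEAF-32 site), the GATA forms (AGATAA and also AGATAG, with TGATAA and also TGATAG) and the Runx forms (AACCACA and also AACCGCA, with GACCACA and also GACCGCA). The BEAF-32 letters can overlap a DRE, and a GATA form can run into a DRE or a GAGA repeat.
Ugalt, rank 2, chrX:2703853-2703947: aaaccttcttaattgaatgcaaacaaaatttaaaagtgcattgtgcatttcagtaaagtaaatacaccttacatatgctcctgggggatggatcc
CG32772, rank 16, chrX:4910328-4910428: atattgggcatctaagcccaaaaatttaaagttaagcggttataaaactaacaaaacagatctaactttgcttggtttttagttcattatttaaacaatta
ph-p, rank 27, chrX:2137273-2137373: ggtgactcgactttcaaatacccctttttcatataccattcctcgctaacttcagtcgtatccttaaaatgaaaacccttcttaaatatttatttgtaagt
Raf, rank 46, chrX:2300652-2300752: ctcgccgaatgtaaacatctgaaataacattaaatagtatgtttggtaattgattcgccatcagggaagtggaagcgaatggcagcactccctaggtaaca
By this choice, none of these 4 sequences holds a capital letter. The printed letters are 34.7%, 26.7%, 33.7% and 41.6% G and C, in the order shown, and the whole X is 42.5%.

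Promoter motifs are shown from peaks lower in the ranking, which says nothing of how often they occur at each rank. The next sequences show a DRE just upstream of RpS10b and RpS14a, which encode ribosomal proteins, and of Rab40, a small GTPase, and an M1BP site inside sgg, the fly GSK3 kinase, and CG43658.
RpS10b, rank 1274, chrX:19597940-19598030: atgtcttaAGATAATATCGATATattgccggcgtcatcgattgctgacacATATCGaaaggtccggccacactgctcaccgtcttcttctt
RpS14a, rank 2411, chrX:7933649-7933741: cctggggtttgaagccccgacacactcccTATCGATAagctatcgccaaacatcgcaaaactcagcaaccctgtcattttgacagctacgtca
Rab40, rank 3610, chrX:12463113-12463192: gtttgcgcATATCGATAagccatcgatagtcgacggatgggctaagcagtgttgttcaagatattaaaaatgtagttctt
sgg, rank 2769, chrX:2648096-2648196: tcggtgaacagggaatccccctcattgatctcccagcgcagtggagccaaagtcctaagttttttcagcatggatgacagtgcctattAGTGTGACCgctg
CG43658, rank 3464, chrX:17518433-17518533: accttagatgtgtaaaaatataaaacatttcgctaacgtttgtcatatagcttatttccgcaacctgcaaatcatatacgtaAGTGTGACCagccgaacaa
The Runx consensus is the motif of the precipitated factor's family. Its forms are shown for X peaks at Unc-76, prage, Ykt6 and Hr4, the last a nuclear receptor of the ecdysone response.
Unc-76, rank 383, chrX:2083941-2084041: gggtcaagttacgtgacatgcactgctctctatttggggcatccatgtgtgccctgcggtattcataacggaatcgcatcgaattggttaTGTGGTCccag
prage, rank 1154, chrX:1840666-1840766: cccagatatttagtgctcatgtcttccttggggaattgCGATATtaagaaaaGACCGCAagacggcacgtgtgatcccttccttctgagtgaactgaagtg
Ykt6, rank 1616, chrX:7920257-7920357: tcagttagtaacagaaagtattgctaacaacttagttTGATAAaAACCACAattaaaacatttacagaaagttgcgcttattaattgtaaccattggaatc
Hr4, rank 1761, chrX:1943733-1943833: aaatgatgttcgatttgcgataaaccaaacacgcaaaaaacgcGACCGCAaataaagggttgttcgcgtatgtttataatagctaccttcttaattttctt
The last sequences are the strongest peak at lz itself, which holds a GATA form and no Runx form, and a GAGA repeat in an intron of Raf, the kinase upstream of MEK.
lz, rank 3295, chrX:9298240-9298340: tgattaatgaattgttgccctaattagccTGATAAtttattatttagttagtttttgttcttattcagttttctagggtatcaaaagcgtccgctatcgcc
Raf, GAGA repeat, rank 1583, chrX:2302251-2302351: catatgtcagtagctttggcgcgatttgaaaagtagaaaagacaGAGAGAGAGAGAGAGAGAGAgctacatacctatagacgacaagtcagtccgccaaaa

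Most X peaks were found again in each replicate. The set was itself derived from these 3 replicates and kept for reproducibility, so this recovery is no independent support. Each replicate list was cut to its own 8048 highest calls, and a peak was matched when a replicate summit lay within 100 bp. Of the X peaks, 1054 (67.0%, 95% Wilson interval 64.7 to 69.3) were matched in all 3 replicates, against 64.5% (63.3 to 65.6) of autosomal peaks. Replicates 1, 2 and 3 held 85.9%, 84.4% and 84.0% of the X peaks, and 14 X peaks were matched in none. Intronic X peaks were matched in all 3 replicates more often (70.9%) than promoter peaks of the X (63.3%), and replicate 2 held the smallest share of X promoter peaks, 77.3%. Among all 30000 pooled calls, 28.1% of those on the X were thresholded and 26.5% of those on the autosomes. The set ends at signal 91.7 on the X, for the peak at rank 8044 near Fur2, and the next X call outside it, at rank 8049 near Drak, has 91.6. Wilson intervals here cover counting error only.

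Counted over all assembled sequence, peaks were denser on the X than on the autosomes in every replicate. The thresholded set has 66.8 peaks per Mb on the X, which is 23.5 Mb long, and 58.7 on the autosomes. Replicates 1, 2 and 3 gave 64.5, 70.9 and 64.4 peaks per Mb on the X, and 59.2, 57.8 and 59.2 on the autosomes. The ratio was thus 1.09, 1.23 and 1.09, a mean of 1.13 ± 0.0800 (SD, n = 3). Replicate 2 is the highest on the X and the lowest on the autosomes. By the same count the X exceeded each large autosomal arm of the thresholded set, where 2L had 61.9 peaks per Mb, 2R 55.2, 3L 61.1 and 3R 58.5. These densities count all assembled sequence. Fewer than 10 peaks lay in 16 of the 109 full autosomal megabases, but in 1 of the 23 on the X. Several of those on 2R, 3L and 3R held no peak at all, so the order of the X and the arms is one of assembled sequence only. Full megabases held a median of 71.0 peaks on the X and 64.0 on the autosomes, and the fullest held 106 and 123. Over 100-kb bins with a transcription start, the density ratio was 1.10. Whether the X exceeds the autosomes, or each arm, without the megabases of fewer than 10 peaks was not tested. With 3 replicates, the exact two-sided sign-flip permutation test of any X minus autosome difference cannot go below p = 0.25, the value it gave for density and for each annotation class below. The test gives that p whenever the 3 differences share a direction, whatever their size, so it does not measure their spread.

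The X peaks lay in introns more often, and between genes less often, than those of the autosomes. A summit within 500 bp of any annotated transcription start was counted as promoter, and the remainder as exon, intron or intergenic. On the X, 770 summits (49.0%, 46.5 to 51.5) were intronic, 599 (38.1%, 35.7 to 40.5) were at promoters, 144 (9.16%, 7.83 to 10.7) were intergenic and 59 (3.75%, 2.92 to 4.81) were exonic. On the autosomes the intronic share was 36.0% (34.8 to 37.2), the promoter share 43.7% (42.5 to 44.9), the intergenic share 18.3% (17.4 to 19.2) and the exonic share 1.98% (1.66 to 2.35). The intronic share of the X in replicates 1, 2 and 3 was 46.9%, 51.6% and 48.9%, and that of the autosomes 33.9%, 38.7% and 36.1%. The difference was 13.0, 12.9 and 12.8 points, a mean of 12.9 ± 0.0875 (SD, n = 3), although the shares themselves moved by several points between replicates. The promoter share was lower on the X, with differences of -6.23, -3.97 and -6.03 points and a mean of -5.41 ± 1.25 (SD, n = 3). The intergenic difference was -7.90, -10.4 and -8.64 points, a mean of -8.99 ± 1.30 (SD, n = 3).

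**Figure D1:**
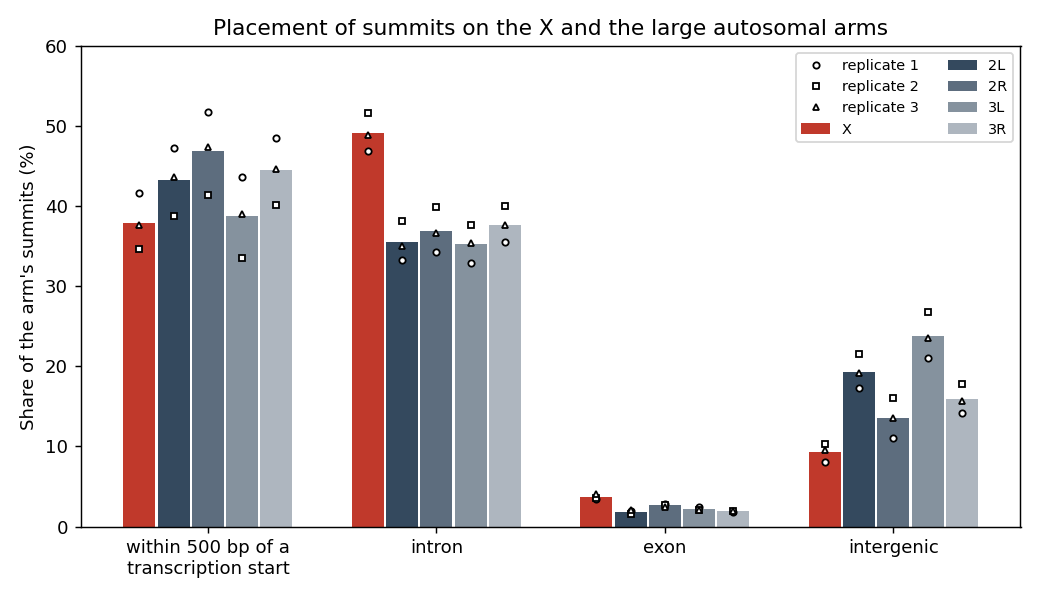
Share of each arm's summits (percent, y axis) in each annotation class (x axis) for the X and the 4 large autosomal arms; bars are means of the 3 replicates and open symbols the replicates. The X bar is the highest in introns and the lowest between genes, with all 3 of its replicates (46.9% to 51.6% intronic, 8.10% to 10.3% intergenic) beyond every replicate of every other arm shown.

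The intronic and intergenic differences held against each large arm. In the thresholded set the intronic share was 35.2% on 2L, 37.6% on 2R, 34.8% on 3L and 37.1% on 3R, all below the X. Their intergenic shares ran from 13.7% on 2R to 23.6% on 3L, all above the X. The promoter share is less distinct, since 3L, at 39.5%, lay close to the 38.1% of the X, and in replicate 2 it was lower there (33.5%) than on the X (34.6%). The small chromosome 4 has 27 peaks, none of them intronic and 66.7% at promoters.

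The annotation itself differs, as introns make up 43.3% of the X and 38.6% of the autosomes under the same class rules, and intergenic sequence 22.6% and 28.2%. Counted per Mb of each class, the intronic and intergenic differences from the autosomes as a whole kept their direction, while that of promoters turned. The X had 75.5 intronic peaks per Mb of intron and the autosomes 54.7, a ratio of 1.38, with 1.34, 1.46 and 1.31 in the replicates (1.37 ± 0.0762, SD, n = 3). Each large arm was below the X, from 50.3 on 3R to 59.8 on 2L. Class densities also count all assembled sequence, with the megabases of few peaks that are more frequent on the autosomes. The part of those megabases in the class ratios was not tested. For intergenic sequence the values were 27.1 and 38.0 per Mb, a ratio of 0.713, and the replicates gave 0.690, 0.763 and 0.713 (0.722 ± 0.0373, SD, n = 3). This did not hold against 2R, which had 25.8 intergenic peaks per Mb in the set and 21.5, 28.2 and 25.7 in the replicates, below the 23.2, 32.4 and 27.1 of the X. The other large arms had 38.5 to 44.7 in the set. Exons showed the highest ratio, 1.95, but from only 59 X peaks, and its replicates spread from 1.49 to 1.94 (1.75 ± 0.238, SD, n = 3). Promoters differed least, and in the other direction than their share, with 202 peaks per Mb on the X and 187 on the autosomes. Their replicate ratios were 1.03, 1.20 and 1.02 (1.09 ± 0.0998, SD, n = 3), so that replicates 1 and 3 lay near 1.

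**Figure D2:**
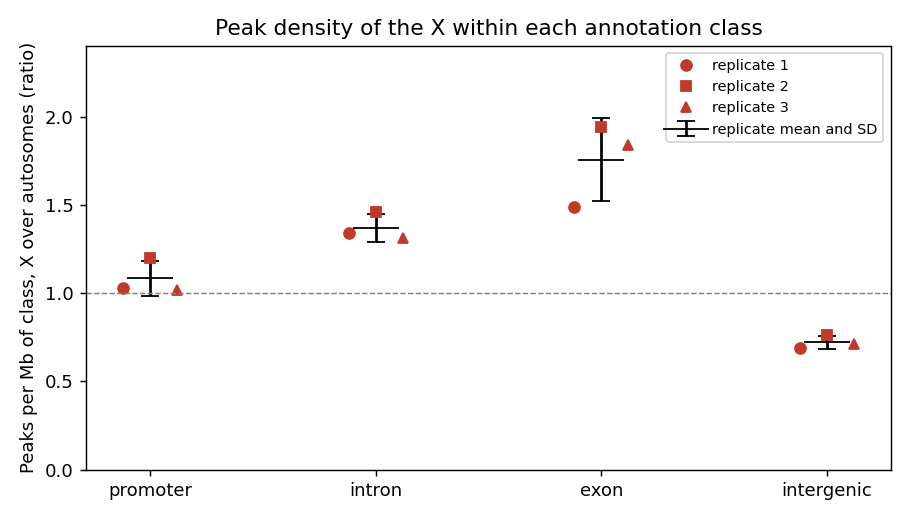
Ratio of peaks per Mb of class on the X to that on the autosomes (y axis) for each annotation class (x axis); red symbols are replicates and black bars their mean and SD, and the dashed line marks equal density. Intron and exon ratios lie above the line and intergenic ratios below it in all 3 replicates, while promoter ratios of replicates 1 and 3 lie close to it.

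Within promoters and introns, X peaks lay at distances from the start similar to those of autosomal peaks. Promoter summits of the X had a median position of -120 bp from the nearest start and 79.1% lay upstream of it, against -97.0 bp and 80.5% on the autosomes. Intronic summits were a median of 3070 bp from any start on the X and 3120 bp on the autosomes, and 36.1% and 35.8% were over 5 kb away. Intergenic summits were nearer on the X, with a median of 2460 bp against 3300 bp. The intronic excess ran through the ranking: among ranks 1 to 500 the intronic share was 44.1% on the X and 28.8% on the autosomes, among ranks 501 to 2000 54.1% and 35.2%, and among ranks 6001 to 8048 46.7% and 37.6%. The promoter share was lower on the X in all 5 rank bins. It was 45.9% against 58.1% among ranks 1 to 500, 39.0% against 46.9% among ranks 501 to 2000, 36.9% against 43.2% among ranks 2001 to 4000 and 35.5% against 42.8% among ranks 4001 to 6000. Among ranks 6001 to 8048 the shares were close, 38.7% against 39.4%.

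Along the X, peaks were spread over most of the arm and thinned out towards the centromere. The 23 full megabases held a median of 71.0 peaks, from 7 to 106. The fullest, X:6000001-7000000, held 106 peaks, and replicates 1, 2 and 3 had 102, 112 and 104 there. The megabase from 3000001 to 4000000, which holds the 3' part of kirre and all of dnc, Mnt and Tlk, had 96 peaks (84, 100 and 99 in the replicates) with only 55 protein-coding genes, and 74.0% of its peaks were intronic. The emptiest full megabase, from 22000001 to 23000000, held 7 (8, 8 and 5 in the replicates). The longest stretch without a thresholded peak, 848 kb from 21631679 to 22479523, contains 28 protein-coding genes. The next gap along the X measured 282 kb.

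Peak counts followed gene counts less closely on the X than on the autosomes. Over the 23 X megabases the Pearson correlation of peaks with protein-coding genes was 0.435 and the Spearman correlation 0.413. Over the 109 full autosomal megabases they were 0.755 and 0.588. These are descriptions of 1 peak set, neighbouring megabases are not independent, and 16 autosomal megabases, but 1 of the X, had fewer than 10 peaks. The X held 0.719 peaks per gene in these bins and the autosomes 0.552. At a finer scale, 27 of 236 bins of 100 kb on the X (11.4%) had no peak, against 243 of 1106 (22.0%) on the autosomes, while bins with at least 15 peaks made up 8.47% and 7.41%. The median distance from a summit to its nearest neighbour was 1970 bp on the X and 2280 bp on the autosomes, and it was shorter on the X in each replicate (2160, 1820 and 1980 bp against 2290, 2180 and 2210 bp).

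**Figure D3:**
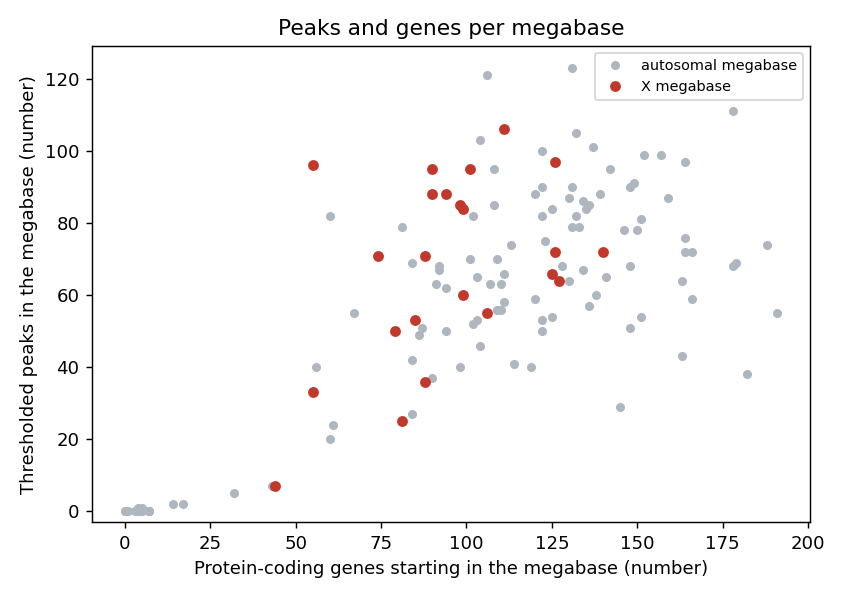
Thresholded peaks (y axis, number) against protein-coding genes (x axis, number) in each full megabase; red points are the 23 X megabases and grey points the 109 autosomal ones. The X points run from 7 to 106 peaks with a median of 71.0, and a group of autosomal megabases with few genes has few or no peaks.

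The densest 100 kb of the X, from 13300001 to 13400000, held 25 peaks (22, 20 and 20 in the replicates), 12 of them at promoters. IP3K2, an inositol phosphate kinase gene, held 7 of them, the most of any gene. By contrast, the 18 peaks between 3000001 and 3100000 (17, 21 and 17 in the replicates) all lay in introns of kirre. The stretch from 3700001 to 3800000 held 21 peaks, 19 of them at Tlk, and that from 17500001 to 17600000 held 21, of which 11 were in CG43658. Dense stretches of the X were thus of different kinds, some made of many promoters and some of a single long gene.

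A somewhat larger share of protein-coding genes had a peak on the X than on the autosomes. The count took each gene from 1 kb before its start to 1 kb past its end. By this rule 909 of 2196 X genes (41.4%, 39.4 to 43.5) and 4419 of 11749 autosomal genes (37.6%, 36.7 to 38.5) had a peak. The replicates gave 42.9%, 39.6% and 39.4% on the X and 40.2%, 33.8% and 37.9% on the autosomes. The difference, 2.66, 5.82 and 1.53 points, had a mean of 3.33 ± 2.22 (SD, n = 3), and its exact two-sided sign-flip permutation p was 0.25. The difference in the set, 3.78 points, was 0.741 among the 4024 strongest peaks, 2.20 without replicate 2 and 5.69 when only the gene span was counted.

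The gap between the X and the autosomes was widest among long genes. Of genes over 20 kb, 157 of 198 on the X (79.3%) and 67.7% on the autosomes had a peak, and the replicates gave 79.3%, 77.8% and 76.8% on the X and 65.9%, 71.0% and 65.9% on the autosomes. These long X genes held 3.83 peaks each and the autosomal ones 2.73. Among genes up to 2 kb the shares were 23.5% and 24.8%, and among genes of 2 to 5 kb 42.1% and 41.1%; in both size classes the order of the X and the autosomes changed between replicates. Long genes were also somewhat more frequent on the X, where 9.02% of genes exceeded 20 kb, against 6.94%.

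**Figure D4:**
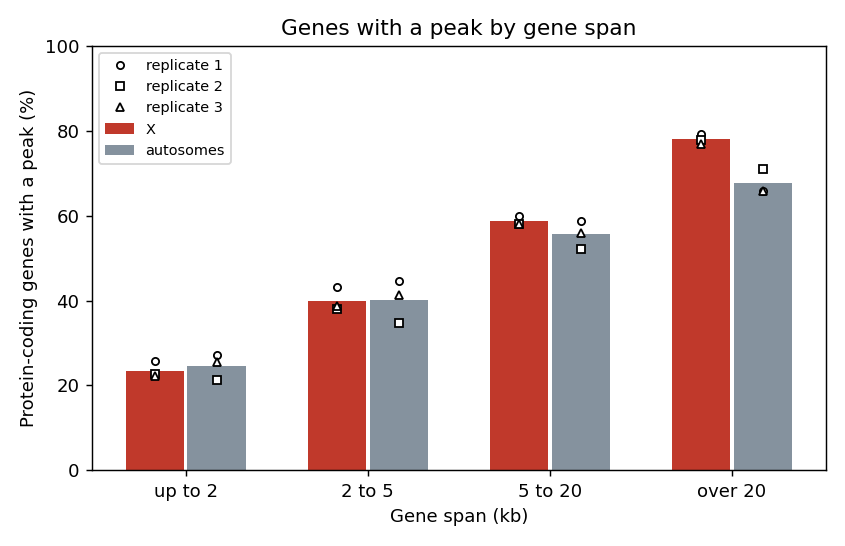
Share of protein-coding genes with a peak (y axis, percent) by gene span (x axis, kb) on the X (red) and the autosomes (grey); bars are means of the 3 replicates and open symbols the replicates. Only for genes over 20 kb do the 3 X replicates (76.8% to 79.3%) all lie above the 3 autosomal ones (65.9% to 71.0%).

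A few long genes held a sizeable part of the X peaks. On the X 18 genes had 10 or more peaks and together held 262 peaks, 16.7% of those of the X, whereas the 52 such autosomal genes held 9.76% of the autosomal peaks. Without the peaks at such genes on the X and the autosomes alike, an alternative chosen after seeing the data, the density ratio fell to 1.05 and the intronic difference to 11.6 points. The gene with the most peaks was kirre, which encodes an immunoglobulin-domain adhesion protein of muscle founder cells. It had 35 peaks over 394 kb, 27 of them intronic, and 32, 41 and 31 in replicates 1, 2 and 3. Inside its span lie 21 genes, so that some of its peaks count for those as well. CG1677 followed with 22 peaks (21, 25 and 20 in the replicates), and 13 genes lie inside its 125 kb span. Tlk, the Tousled-like kinase of chromatin assembly, had 19 peaks, 16 of them intronic. Its replicates held 16, 15 and 18, but the peaks were not the same ones throughout, since only 10 matched both other lists when replicate 1 or replicate 3 was left out.

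The shorter genes among these leaders were packed more tightly. Mnt, a repressor that competes with Myc for their shared partner Max, had 15 peaks in 29.9 kb (16, 15 and 17 in the replicates), or 0.471 per kb. CG14434 had 12 peaks in 15.3 kb (10, 14 and 11), or 0.694 per kb. Raf had 14 peaks (14, 14 and 15 in the replicates), of which 13 remained whichever replicate was left out. CG43658 had 18 peaks (18, 23 and 21). Further down, spri, an adaptor of Ras and Rab proteins, CG12535 and CG32816 had 13 peaks each, and Bx, a LIM-only protein of the wing, had 12. Inside the 154 kb span of CG32816 lie 9 genes, among them ac and ase. Of these, spri fell from 13 to 8 peaks without replicate 3 and CG32816 from 13 to 8 without replicate 2.

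**Figure D5:**
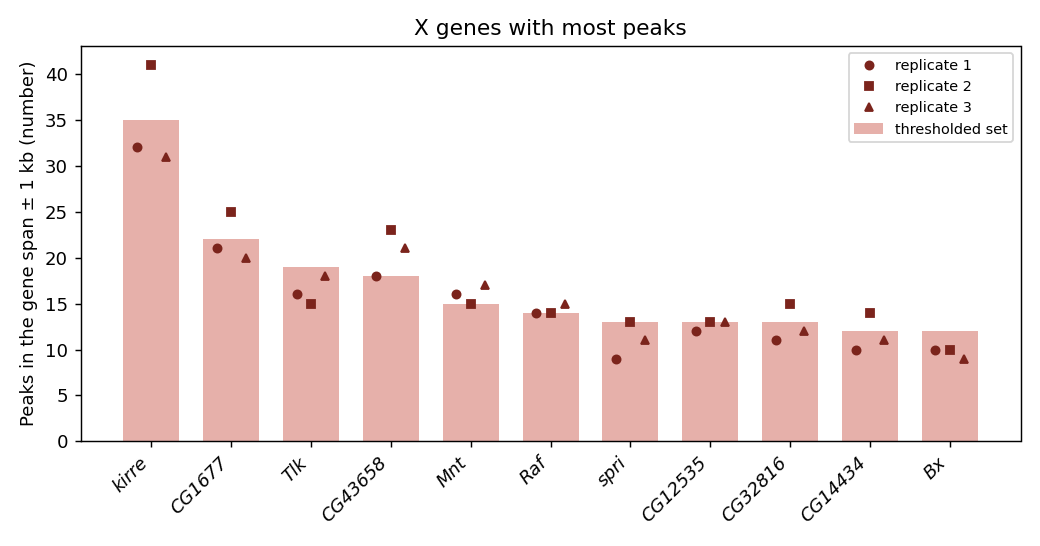
Peaks in the span or 1 kb to either side (y axis, number) of 11 of the 12 X genes with most peaks (x axis); bars are the thresholded set and symbols the replicates, each cut to its 8048 highest calls. kirre leads in all 3 replicates with 31 to 41 peaks, and the other 10 genes shown lie between 9 and 25 in every replicate.

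Of the 12 strongest X peaks 8 were intronic, and most kept nearly the same rank in every replicate. Ranks are by the authors' signal value, whose scale is not stated and which was not compared between lists. The highest X peak, X:2703661-2704136, lay at -45 bp from the start of Ugalt, which encodes a UDP-galactose transporter, and was at rank 2 in the pooled list and in replicates 1, 2 and 3. The next, X:4910167-4910667 in an intron of CG32772, was at rank 16 and at 16, 14 and 14 in the replicates. The third, X:2137037-2137603, lay at -468 bp from a start of ph-p, a Polycomb group gene, at rank 27 (21, 16 and 26). As ph-p and its neighbour ph-d are a tandem duplicate, reads of one could be placed at the other, and how the authors placed such reads is not stated. The peak near lncRNA:CR44619 followed at rank 28, and that in LPCAT, an enzyme of phospholipid synthesis, at rank 30.

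Below these came intronic peaks in CG3726 at rank 32, in norpA, the phospholipase C of phototransduction, at rank 44 (50, 30 and 50), in Raf at rank 46 (46, 46 and 45) and in Tlk at rank 52 (51, 52 and 57). The peak at rank 54 lay in an intron of Zw, the glucose-6-phosphate dehydrogenase gene, nearest to the start of the antisense RNA asRNA:CR44512. The peak at -173 bp from the start of Gapdh2, a glycolytic enzyme gene, was at rank 64 and differed most between replicates, with 53, 144 and 46. The last of the 12, at rank 66, lay in an intron of Hr4, nearest to the start of CR46447. The other 4 of these 12 peaks were at promoters, while of the 12 strongest autosomal peaks 4 were intronic, 7 were at promoters and 1 was intergenic. Among the 100 strongest of each, the X had 44 intronic and 46 promoter peaks and the autosomes 23 and 69. All of these 100 X peaks, and 99 of the autosomal ones, were matched in all 3 replicates, from which the set itself was derived.

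The share of the X was above its overall value at both ends of the ranking of thresholded peaks. It held 20.8% of the 1000 strongest, 1.27 points above its 19.5% of all thresholded peaks. In replicates 1, 2 and 3 the excess over their own X share was 1.14, 1.25 and 1.36 points (1.25 ± 0.112, SD, n = 3; exact two-sided sign-flip permutation p = 0.25). The excess in the set was 0.562 without replicate 3, 2.67 for the 500 strongest and 0.617 for the 2000 strongest. It was not limited to strong peaks, since the X held 22.2% of ranks 1 to 500, 18.6% of ranks 2001 to 4000, 18.1% of ranks 4001 to 6000 and 21.3% of ranks 6001 to 8048. Among pooled calls at ranks 8049 to 30000 the X share was 18.4%, and for the last 5000 of them it was 17.4%, close to the 17.6% of the sequence that the X takes up.

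Of the genes of dosage compensation, the X-linked RNAs roX1 and roX2 each had a peak, and mof, the acetyltransferase of the MSL complex, had none. The roX2 peak was at rank 3082 and present in all 3 replicates. Its summit, at 11580419, lay at the 3' end of roX2 and at -353 bp from the start of nod, a kinesin gene, so the files do not say which gene it belongs to. The roX1 peak was at rank 8022, near the end of the set, and only replicate 2 had it. Of the 6 autosomal members 4 had a peak. These 4 are read against the 37.6% of autosomal protein-coding genes with a peak, while roX1 and roX2, being noncoding, belong to neither background. The X counts below are read against the 41.4% of X protein-coding genes with a peak, and the genes were grouped with earlier results of these data known. That background takes no account of gene span: 23.5% of X genes up to 2 kb and 79.3% of those over 20 kb had a peak. The lists were not matched for span, and its part in their counts was not tested. Each call is of a gene's surroundings in whole animals and says nothing of its expression.

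Of 8 X-linked sex determination genes 3 had a peak (37.5%), near the background: Sxl, the master switch, with 3 peaks and the highest at rank 854, snf, a splicing factor, at rank 4711, and ovo, a germline factor, at rank 5161. The X-counting gene run and the germline gene otu had none. Of 6 proneural and neural genes 1 had peaks: elav, an RNA-binding protein of neurons, with 2, the higher at rank 172. The proneural genes ac and ase had none within 1 kb, but both lie inside the span of CG32816, which had 13 peaks. The 15 patterning factors had peaks at 8, among them ct at rank 1140, bi at 1409 and peb at 3103, all transcription factors, whereas the homeobox genes B-H1 and B-H2 had none. Without replicate 1, that count fell to 5, as sd, btd and Sp1 lost their peaks, all below rank 5000. Genes of visible markers had peaks at 7 of 15, including sn, the fly fascin, with 7 peaks, dy at rank 379, cm, an AP-3 subunit, at 527 and fw at 1471; g and m had none.

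Of 8 ecdysone genes 4 had a peak. Among the nuclear receptors, Hr4 had 10, the highest at rank 66 (11, 10 and 10 in the replicates), and usp, the partner of the ecdysone receptor, had 3 in each replicate, the highest at rank 1304. The early gene br had 3, all weak, the highest at rank 4884, and none of them remained without replicate 1 and 1 without replicate 2 or replicate 3. The peak counted for dor, a vesicle trafficking gene, at rank 3256, lay nearer to the start of CG3740. The hormone enzymes Cyp18a1 and phtm and the glue genes Pig1 and Sgs4 had no peak in the set or in any replicate.

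Among 21 signalling genes 14 had a peak, led by Raf, by sgg with 6 peaks and the highest at rank 122, by kirre at rank 170 and by N, the Notch receptor, at rank 550. The sgg count fell to 3 without replicate 2. The Wnt mediator dsh and the JAK kinase hop had none. Growth and cell cycle genes had a peak at 6 of 8, among them Zw, Act5C at rank 205 (a peak outside the gene, at -217 bp from the start of lncRNA:CR45668), Myc with 4 peaks and the highest at rank 247, and Mnt at rank 625, while CycD and Rbf had none. Neuronal genes had peaks at 10 of 16, including norpA, the phosphodiesterase gene dnc with 8 peaks, rdgA at rank 901 (at the start of CG10962) and Fas2 at rank 3109, and not Appl or cac. Chromatin genes had peaks at 6 of 11, with ph-p and ph-d at 5 each, nej, the fly CBP, at rank 604 (outside the gene, nearest to the start of lncRNA:CR42657) and HP1b at rank 2649, and neither Hmr nor mof. The ph-d count fell to 3 without replicate 3.

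Cytoplasmic ribosomal protein genes were the list with the most complete coverage. All 14 X-linked members had a peak, and 14, 13 and 14 had one in replicates 1, 2 and 3. The highest were at RpS28b (rank 911), RpS10b (1274), RpL22 (1453) and RpS5a (1515), and the summits of those 4 lay at -43, -41, -53 and -77 bp from their own starts. The pair RpS14a and RpS14b lie side by side with near-identical coding sequence, so a peak between them, at rank 2129, counts for both and reads could be split between them. Without replicate 1 or replicate 3 the count was 12, and without replicate 2 it was 14.

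Summit sequences were rich in A and T on the X and the autosomes alike, while some motifs differed in how they compared with their chromosomes. Windows of the summit and 50 bp to either side were 34.2% G and C on the X and 33.6% on the autosomes, while the chromosomes as a whole had 42.5% and 42.1%. In the replicates the X windows had 34.5 ± 0.655% and the autosomal ones 34.0 ± 0.993% (SD, n = 3). The DRE was in 27 X windows (1.72%, 1.18 to 2.49), 24 of them at promoters, against 0.350% of all windows of that length tiled along the X; on the autosomes the shares were 1.58% and 0.259%. The M1BP site was in 9 X windows (0.573%, 0.301 to 1.08), 4.65 times the 0.123% of tiled windows. On the autosomes it was in 0.757%, 8.22 times the tiled share. Its share was lower on the X in all 3 replicates (-0.247 ± 0.199 points, SD, n = 3, exact two-sided sign-flip permutation p = 0.25), by only -0.0227 points in replicate 2. The X interval holds the autosomal share, so a lower M1BP share on the X is not clear. GATA forms were in 329 X windows (20.9%), 1.35 times the 15.5% of tiled windows, and the autosomal ratio was also 1.35. The BEAF-32 letters were in 85 (5.41%), 1.36 times the tiled share, against 1.58 times on the autosomes. A match is a description of letters, not of a bound factor.

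The Runx consensus was less frequent at X summits than along the X. It was in 43 windows (2.74%, 2.04 to 3.66), 0.645 times the 4.24% of tiled X windows, and on the autosomes the ratio was 0.606. The replicates had 3.05 ± 0.337% on the X (SD, n = 3), all below the tiled share; summit windows also hold fewer G and C than the tiled ones, and the part of that difference in the result was not tested. CA repeats, too, had a lower share at X summits, in 20 windows (1.27%, 0.825 to 1.96) against 2.74% of tiled windows. GAGA repeats were in 9 (0.573%, 0.301 to 1.08) against 0.783%, and TA repeats in 27 (1.72%, 1.18 to 2.49) against 2.16%. For GAGA and TA repeats the interval holds the tiled share, so a lower share at X summits is not clear. On the autosomes CA repeats were also below the tiled share (0.517 times), whereas GAGA and TA repeats were at 1.07 and 1.26 times it. The X ratios were 0.732 and 0.794, the former from only 9 windows. In percentage points the X and autosomal shares differed most for GATA forms, the most frequent motif, which were lower on the X in all 3 replicates (-1.62 ± 0.922 points, SD, n = 3; exact two-sided sign-flip permutation p = 0.25). CA repeats, though rare, were in 1.27% of X and 0.865% of autosomal windows. Their share was higher on the X in all 3 replicates (0.526 ± 0.292 points, SD, n = 3, exact two-sided sign-flip permutation p = 0.25). Tiled windows differed in the same direction, at 2.74% on the X and 1.67% on the autosomes. Against its tiled share, the X was the lower, at 0.464 times beside 0.517 times.

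The gene that encodes lz had 3 peaks, all intronic and of middle or low rank. Their summits were at 9298290 (rank 3295, and 3518, 2384 and 3411 in the replicates), at 9295728 (rank 5413, and 4895, 5041 and 7746) and at 9300109 (rank 6926, and 7071 and 6254 in replicates 1 and 2). The last had no match in replicate 3, and its nearest start was that of lncRNA:CR44534, not of lz.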

How the data were processed

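Lists came from 3 replicates of 1 group. Per the deposited file lists, the authors called peaks and background regions for each replicate and for the pooled replicates against 1 control alignment, and thresholded them by reproducibility (irreproducible discovery rate); the aligner, the caller and the cut-off used are not stated. The signal value deposited by the authors has no stated scale; it ordered the peaks of a list and nothing else. The deposited −log10 q-value held 1 distinct value over the thresholded peaks and was not used. The files give no read counts, so the depth behind a peak is unknown.

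The thresholded dm6 set was checked to be the 8048 highest of 30000 pooled calls. Coordinates are 1-based. Summits were classed with Ensembl 115 gene models (transposable elements left out), every summit kept, 14 X summits sharing an interval with another. Sequence came from the RefSeq dm6 genome. X minus autosome differences were taken in the set and in each replicate and tested by the exact two-sided sign-flip permutation over 3 replicates. The code was tested on simulated summits first. The alternatives covered the number of peaks, promoter window, gene flank, motif window, build and left-out replicates (peaks matched in both others).

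The members, the 11 gene lists (131 entries, 127 distinct genes, 6 matched by another name) and the 8 motifs were chosen with earlier results of these data known. The genes named were lz, roX1, roX2, the 12 X genes with most peaks, the gene nearest to each of the 12 strongest X peaks and, per list, up to 4 X-linked members with the highest peak and the first 2 by name without one; 1 of the 12 genes with most peaks is not reported here; genes of sequences, dense stretches and neighbours were named after their values were seen. Software: matplotlib 3.10.9, scipy 1.17.1, pandas 2.3.3 and numpy 2.4.6 under Python 3.11.15.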

Additional observations from a re-analysis of the deposited data

How the results depend on the processing

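Of 100 alternative values, 86 kept the direction, including 44 of 44 that do not concern motifs. All of them recount data of the same 3 replicates, and 1 setting was chosen after seeing the data. Intergenic and exonic shares had no alternatives. The count per Mb of class, under which the promoter difference turned, is not among these values. None of them left out the megabases with few peaks. With the 4024 strongest peaks, the X minus autosome difference was 0.741 points for genes with a peak, -7.36 for promoters, 14.4 for introns and 1.52 for the X among the 1000 strongest; for motifs it was 0.553 for TA repeats and turned to -0.333 for GAGA repeats, -0.133 for the DRE and -0.726 for the Runx consensus. Leaving out each replicate gave 13.6 to 13.9 points for introns, 0.562 to 1.72 for the X among the 1000 strongest, -0.0204 to 0.254 for TA repeats (turned without replicate 1), -0.0861 to -0.00943 for GAGA repeats (turned in all 3), -0.0973 to 0.419 for the BEAF-32 site (turned without replicates 1 and 3), -0.0932 to 0.202 for the DRE and -0.196 to 0.0663 for the Runx consensus; the DRE turned without replicate 1 (-0.0208) and replicate 2 (-0.0932), and the Runx consensus without replicate 2 (-0.0819) and replicate 3 (-0.196). A promoter window of 250 bp gave -7.10 for promoters and 14.5 for introns, and of 1000 bp -3.95 and 11.0. Without chromosome 4 the intronic difference was 12.8. The X excess was 2.67 points among the 500 strongest, 0.617 among the 2000 strongest, 1.40 on dm3 and 1.10 with 1 summit per interval. Density per protein-coding gene gave a ratio of 1.30. Without peaks at genes with 10 or more peaks, chosen after seeing the data, the ratio was 1.05, promoters -4.09 and introns 11.6. Windows reaching 100 bp to either side gave -0.0829 for GAGA repeats, turned, 0.976 for CA repeats, 0.655 for TA repeats and 1.21 for the Runx consensus. The cause of these changes was not tested. Density on dm3 was not run. No paired analysis was possible because the replicates form 1 group, so that their numbers pair no samples across groups; the X and the autosomes were compared within each replicate. With 3 replicates, no difference can reach a permutation p under 0.25; read depth is unknown, and no control was analysed here, so calls that precipitation without the tag would give cannot be told apart from those of lz.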
